A study of Mus musculus with 4 samples.

Results

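The genes described here are the mouse chemokines and their receptors: 34 genes chosen by name from a list, 26 of them ligands and 8 of them receptors. The list was chosen with earlier results of these data known, so its shares beside those of all genes are descriptions only. A gene was represented by the array probes whose accession belongs to it, and 33 of the 34 had such a probe, out of 20886 genes named on the arrays. Cxcl11 was not matched and is not analysed here. The 33 genes had 41 probes. A probe was called well above background by the scanner software's own flag: 28 genes were so on at least 1 array, 22 on all 4 arrays, 6 on 1 to 3 arrays and 5 on none.

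The arrays measured total RNA of whole liver from male mice that carried a catalase knockout or were wild type, given a normal diet with 18% of calories from fat or a high-fat diet with 60.3% of calories from fat. Feeding ran for 11 weeks, from 29 to 40 weeks of age. Each of the 4 combinations of genotype and diet was hybridised to 1 array, so 1 sample stood for each group, named below as the normal-diet or high-fat-diet wild type or knockout. Whether 1 animal or a pool gave each RNA sample, and how the knockout was made, is not given in the labels. With 1 array a group there was no replicate check, no test and no p-value, and each error given below is the scanner's error for 1 spot or probe, which leaves out the spread between animals.

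Chemokines are small secreted proteins that bind receptors on leukocytes and draw the cells along a gradient. CC, CXC and CX3C ligands are named for the spacing of their first cysteines, and each ligand acts through one or a few receptors of the matching family. In liver, Kupffer cells, hepatocytes, stellate cells and sinusoidal endothelium can all make them, and the ligands that draw monocytes and neutrophils are induced by NF-kB.

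Signals are processed intensities as the scanner software wrote them, and differences are on the log2 scale after each array was set to its 75th percentile. That percentile was between 1002 and 1152 on the 4 arrays, between 23760 and 25185 of 39429 probes were well above background, and no member spot was saturated. Cat, the catalase gene, read 29880 in normal-diet wild type, 27514 in high-fat-diet wild type, 2201 in the normal-diet knockout and 2220 in the high-fat-diet knockout. The knockout was lower by a log2 difference of -3.76 ± 0.20 on normal diet and -3.81 ± 0.20 on high-fat diet, and the labels do not say whether the probe lies in the deleted part. A gene is said to have risen or fallen where it differed at least 2-fold and was well above background on both arrays. Where it was so on 1 array only, the other array was set to the higher of its own signal and the lowest signal of any probe well above background there, and the fold is a lower bound, written as "at least". The median scanner error of a difference was 0.21 over the members and 0.20 over all genes.

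With high-fat diet, chemokine genes rose in the knockout and none rose in wild type. Of 28 members measured, 9 rose from normal to high-fat diet in the knockout (32.1%, against 4.22% of all genes): Ccl2, Ccl3, Ccl4, Ccl6, Ccl7, Cxcl5, Cxcl13, Ccr2 and Cx3cr1. The neutrophil receptor Cxcr2 fell, 3.57% against 1.64% of all genes. In wild type 0 of 27 rose (1.78% of all genes did), and Ccl8 and Cxcl1 fell (7.41%, against 2.31% of all genes). Median differences were 0.53 over 22 members well above background on both arrays in the knockout and -0.11 over 24 in wild type, beside -0.07 and -0.02 over all genes.

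Compared with wild type, the normal-diet knockout was low in several ligands. Ccl2, Ccl8, Cxcl1 and Cxcl10 fell (14.8% of 27 measured, against 2.50% of all genes), and Cxcr2 rose (1.40% of all genes did). On high-fat diet Ccl3, Ccl4, Ccl7, Cxcl5, Cxcl13 and Cx3cr1 were higher in the knockout (21.4% of 28 measured, against 2.51% of all genes), and 0 fell (1.59% of all genes did). Median differences were -0.21 over 22 members on normal diet and 0.49 over 24 on high-fat diet, beside -0.01 and -0.04 over all genes. The diet comparison in wild type and the genotype comparison on normal diet share the array of normal-diet wild type, and the diet comparison in the knockout and the genotype comparison on high-fat diet share the array of the high-fat-diet knockout. Each pair is therefore given side by side only.

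Over the 22 members well above background on all 4 arrays, 13 were highest in the high-fat-diet knockout (59.1%, against 23.6% of all genes). Another 5 were highest in normal-diet wild type (22.7%, against 31.2% of all genes): Ccl9, Cxcl1, Cxcl10, Cxcl12 and Cxcr6. The lowest of the 4 arrays was the normal-diet knockout for 11 of the 22 members (19.8% of all genes), among them Ccl2, Ccl3, Ccl4, Ccl5, Ccl6, Cxcl1 and Cxcl10.

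**Figure D1:**
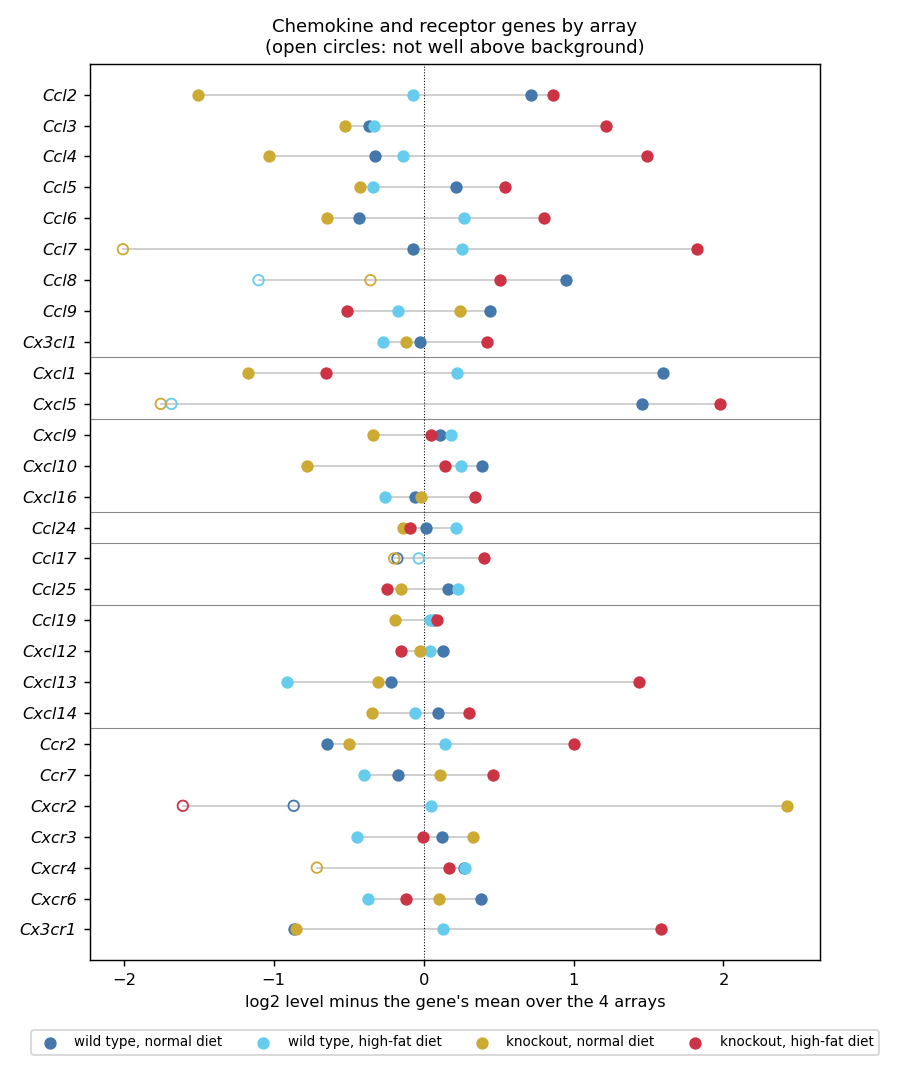
Scaled log2 level of each of the 28 detected chemokine and receptor genes on each of the 4 arrays, minus the gene's mean over the 4 arrays (x axis, log2); grey lines separate the classes by leukocyte attracted, and open circles were not well above background. The high-fat-diet knockout sits farthest to the right for Ccl2, Ccl3, Ccl4, Ccl7, Cxcl13, Ccr2 and Cx3cr1, and the normal-diet knockout sits farthest to the right for Cxcr2.

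Among the 9 monocyte and macrophage attractants, 5 rose with high-fat diet in the knockout and none fell (4.22% and 1.64% of all genes did), with a median of 1.45 over 7 genes well above background on both arrays. In wild type none rose and Ccl8 fell (1.78% and 2.31% of all genes did), with a median of -0.11 over 8. The knockout on normal diet was lower for Ccl2 and Ccl8 (2.50% of all genes were), with a median of -0.22 over 7. The high-fat-diet knockout was higher for Ccl3, Ccl4 and Ccl7 (2.51% of all genes were), with a median of 0.91.

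Ccl2, which draws monocytes from bone marrow and blood through Ccr2, read 853 in normal-diet wild type, 501 in high-fat-diet wild type, 183 in the normal-diet knockout and 1081 in the high-fat-diet knockout. The knockout supplied both the lowest and the highest of the 4 levels, with wild type between them. Ccl2 rose 5.15-fold from normal to high-fat diet in the knockout, a log2 difference of 2.36 ± 0.07, while the wild-type difference was -0.79 ± 0.06 and under 2-fold. Against wild type, the knockout fell 4.65-fold on normal diet (-2.22 ± 0.07) and differed by 0.93 ± 0.06 on high-fat diet, short of 2-fold. The Ccl2 probe was printed 10 times on each array, and its spots ran from 762 to 909, from 467 to 551, from 160 to 201 and from 998 to 1157 on the arrays in the same order. Those 4 ranges of unscaled signal do not overlap. After scaling, the spots of normal-diet wild type (-0.40 to -0.15) and of the high-fat-diet knockout (-0.21 to 0.01) overlap. The SD of the spots was between 0.08 and 0.10 on the log2 scale. The spots are repeat readings of 1 RNA sample, not replicates.

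**Figure D2:**
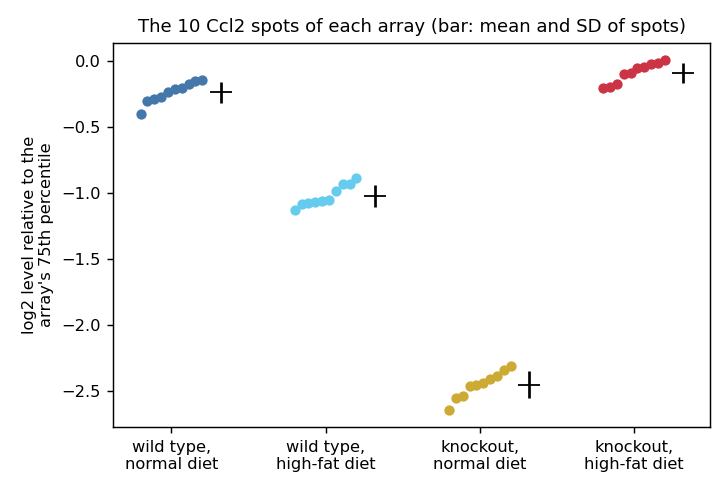
The 10 Ccl2 spots of each array as scaled log2 level (y axis, relative to the array's 75th percentile), ordered by level within the array, with the mean and SD of the spots as a cross. The spots of the normal-diet knockout lie lowest, and those of high-fat-diet wild type form a separate band above them. The spots of normal-diet wild type and of the high-fat-diet knockout overlap, with the higher mean in the high-fat-diet knockout.

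Ccl7 and Ccl8, monocyte chemoattractants encoded near Ccl2, were dim. Ccl7 read 29.1 and 36.9 in wild type on normal and high-fat diet, 7.57 in the normal-diet knockout, where it was not well above background, and 124 in the high-fat-diet knockout. It rose at least 4.76-fold with high-fat diet in the knockout and was 2.97-fold higher than in wild type on that diet (1.57 ± 0.32). Ccl8 read 55.8 in normal-diet wild type and 47.1 in the high-fat-diet knockout, and 13.7 and 22.5 in high-fat-diet wild type and the normal-diet knockout, both not well above background. It fell at least 2.34-fold with diet in wild type and at least 2.46-fold in the normal-diet knockout. Its bound of 1.81-fold for diet in the knockout was under the 2-fold size. Ccl8 was thus detected in the same arrays in which Ccl2 read highest.

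Ccl3 and Ccl4, ligands made by activated macrophages, stood apart on the array of the high-fat-diet knockout. Ccl3 read 29.3, 30.4 and 26.1 in normal-diet wild type, high-fat-diet wild type and the normal-diet knockout, and 100 in the high-fat-diet knockout. It rose 3.33-fold with diet in the knockout (1.74 ± 0.35) and was 2.91-fold above wild type on that diet (1.54 ± 0.34). Ccl4 read 57.3 and 66.1 in wild type on normal and high-fat diet, 34.9 in the normal-diet knockout and 231 in the high-fat-diet knockout. It rose 5.76-fold with diet in the knockout (2.53 ± 0.29) and was 3.09-fold above high-fat-diet wild type (1.63 ± 0.24). On normal diet the knockout differed from wild type by -0.71 ± 0.31 for Ccl4 and -0.16 ± 0.43 for Ccl3, the latter within its scanner error.

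Ccl5, which draws T cells and monocytes, read 822 in normal-diet wild type, 568 in high-fat-diet wild type, 526 in the normal-diet knockout and 1182 in the high-fat-diet knockout. Its order over the arrays was that of Ccl2, except that the levels of high-fat-diet wild type and the normal-diet knockout differed by less than the scanner error. None of its differences reached 2-fold: the diet difference was 0.97 ± 0.20 in the knockout and -0.55 ± 0.20 in wild type. Ccl6, a mouse ligand abundant in myeloid cells, read 1250 and 2055 in wild type on normal and high-fat diet, and 1071 and 3369 in the knockout on the same diets. It stood higher on high-fat diet in both genotypes, and the 2.74-fold rise in the knockout (1.45 ± 0.20) passed the size rule while the wild-type difference of 0.70 ± 0.20 did not.

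Ccl9, a myeloid ligand like Ccl6 and its neighbour on the chromosome, went the other way. Its signal was 9326 and 6170 in wild type and 8096 and 5522 in the knockout on normal and high-fat diet. It stood lower on high-fat diet in both genotypes, by -0.62 ± 0.20 and -0.75 ± 0.20, under 2-fold. Cx3cl1, the membrane-bound ligand of Cx3cr1, read 80.4, 68.6 and 75.1 in normal-diet wild type, high-fat-diet wild type and the normal-diet knockout, and 125 in the high-fat-diet knockout. It was highest in the last of these, with differences of 0.54 ± 0.24 for diet in the knockout and 0.69 ± 0.25 for genotype on high-fat diet that did not reach 2-fold.

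The CC ligands among the members that lie on chromosome 11 are 9 genes in the order Ccl2, Ccl7, Ccl11, Ccl8, Ccl5, Ccl9, Ccl6, Ccl3, Ccl4. Of these 8 were detected, Ccl11 being the exception, and 5 of the 8 rose with high-fat diet in the knockout, against 4.22% of all genes. Ccl9 lies between genes that stood higher on that array and itself stood lower.

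The neutrophil attractants bind Cxcr2. Cxcl1 read 12239 in normal-diet wild type, 4785 in high-fat-diet wild type, 1788 in the normal-diet knockout and 2949 in the high-fat-diet knockout. Wild type on normal diet was the highest and both knockout arrays were below both wild-type arrays, unlike Ccl2. Cxcl1 fell 2.59-fold with diet in wild type (-1.37 ± 0.20) and was 6.82-fold lower in the normal-diet knockout (-2.77 ± 0.20), the widest difference of a member well above background on both arrays. On high-fat diet the knockout difference was -0.88 ± 0.20, and the diet difference in the knockout was 0.52 ± 0.20, both under 2-fold.

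Cxcl5 read 41.9 in normal-diet wild type and 68.8 in the high-fat-diet knockout, and 4.82 and 4.51 in high-fat-diet wild type and the normal-diet knockout, where it was not well above background. It rose at least 2.65-fold with diet in the knockout and was at least 2.52-fold higher than in high-fat-diet wild type. The opposite steps, down with diet in wild type and down with genotype on normal diet, had bounds of 1.76-fold and 1.85-fold, under the 2-fold size. Cxcl5 was therefore detected in the same arrays as Ccl8. Cxcl2 was not well above background on any array.

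Upstream sequence is shown for 4 ligands that rose or fell and represent the different patterns (Cxcl1, Cxcl10, Cxcl13 and Ccl3), with Cxcl2 added because it shares its matches with Cxcl1. Of the 34 members 24 matched the RefSeq promoter table (GRCm38.p6). The other 10 had no window there and were not searched: Ccl2, Ccl4, Ccl5, Ccl7, Ccl11, Ccl24, Cxcl5, Cxcl11, Cxcl16 and Ccr7. Each run is the 250 bases before the start of transcription, 5′ to 3′ on the gene's own strand: Cxcl1 chr5:90890995-90891244 (+), Cxcl2 chr5:90903649-90903898 (+), Cxcl10 chr5:92348890-92349139 (-), Cxcl13 chr5:95956689-95956938 (+) and Ccl3 chr11:83649379-83649628 (-). Capitals mark matches to the NF-kB consensus and, in Cxcl10, also to TGACTCA.
Cxcl1: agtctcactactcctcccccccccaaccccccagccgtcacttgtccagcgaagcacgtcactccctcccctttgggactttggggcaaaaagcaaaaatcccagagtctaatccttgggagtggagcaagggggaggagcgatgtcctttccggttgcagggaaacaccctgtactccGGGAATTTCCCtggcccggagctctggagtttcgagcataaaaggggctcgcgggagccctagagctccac
Cxcl2: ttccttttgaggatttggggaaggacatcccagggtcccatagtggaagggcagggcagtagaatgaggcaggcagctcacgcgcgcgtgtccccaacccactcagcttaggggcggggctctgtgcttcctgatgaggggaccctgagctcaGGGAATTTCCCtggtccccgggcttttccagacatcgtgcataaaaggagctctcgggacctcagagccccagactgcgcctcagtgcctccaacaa
Cxcl10: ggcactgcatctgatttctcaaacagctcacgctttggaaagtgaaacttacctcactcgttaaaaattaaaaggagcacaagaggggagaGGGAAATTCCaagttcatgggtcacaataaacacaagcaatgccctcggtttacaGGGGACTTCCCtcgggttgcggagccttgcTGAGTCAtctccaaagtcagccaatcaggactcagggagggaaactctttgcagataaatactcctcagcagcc
Cxcl13: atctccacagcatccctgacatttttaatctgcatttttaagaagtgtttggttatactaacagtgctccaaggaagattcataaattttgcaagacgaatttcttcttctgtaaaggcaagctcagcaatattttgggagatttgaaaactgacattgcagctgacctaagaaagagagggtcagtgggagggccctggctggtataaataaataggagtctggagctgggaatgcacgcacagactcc
Ccl3: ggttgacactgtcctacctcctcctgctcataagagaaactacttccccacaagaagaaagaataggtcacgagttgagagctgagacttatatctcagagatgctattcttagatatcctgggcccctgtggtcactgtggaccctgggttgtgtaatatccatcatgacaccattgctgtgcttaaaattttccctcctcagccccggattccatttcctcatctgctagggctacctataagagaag
The NF-kB consensus was met on either strand in 6 of the 24 members' windows and in 7.25% of 32851 promoters of that length: those of Cxcl1, Cxcl2, Cxcl10, Ccl9, Ccl20 and Ccr1. It lies 71 to 62 bases before the start of Cxcl1 and 97 to 88 bases before that of Cxcl2, each time with a match on the other strand shifted by 1 base. Cxcl10 had matches 159 to 150 and 104 to 95 bases before its start, and the AP-1 letters TGACTCA, held by 4.46% of all promoters, on the other strand 74 to 68 bases before it. The shorter NF-kB letters GGAATTTCC overlap the consensus matches of 3 members (Cxcl1, Cxcl2 and Cxcl10) and are held by 0.286% of all promoters. The STAT letters TTCNNNGAA were in Ccl17 and Cxcl14 and in 7.02% of all promoters. The windows of Cxcl13 and Ccl3 held none of these letters.

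Cxcl9 and Cxcl10 draw activated T and NK cells through Cxcr3 and are induced by interferon gamma, and Cxcl16 is the ligand of Cxcr6. Cxcl10 read 1252, 1153 and 1210 in normal-diet wild type, high-fat-diet wild type and the high-fat-diet knockout, and 555 in the normal-diet knockout. The diet difference in wild type and the genotype difference on high-fat diet were within the scanner error, and the normal-diet knockout stood 2.25-fold lower than wild type (-1.17 ± 0.20). Its only spot on the wild-type normal-diet array carried the scanner's outlier flag and was kept. The diet difference in the knockout was 0.92 ± 0.20, under 2-fold.

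Cxcl9 had its lowest signal on the same array: 1062 and 1131 in wild type on normal and high-fat diet, 774 in the normal-diet knockout and 1164 in the high-fat-diet knockout. Its differences were between -0.45 and 0.39, none of them 2-fold. Cxcl16 read 385 and 339 in wild type on normal and high-fat diet and 394 and 581 in the knockout on the same diets. Its widest difference was 0.60 ± 0.21, for genotype on high-fat diet. Of these 3 ligands, Cxcl10 alone passed the size rule, in 1 of the 4 comparisons.

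The attractants of eosinophils and of T cell subsets moved little. Ccl24, an eosinophil attractant, read 290, 338, 260 and 309 in normal-diet wild type, high-fat-diet wild type, the normal-diet knockout and the high-fat-diet knockout. Ccl25, which guides T cells bearing Ccr9 in thymus and gut, read 1455, 1544, 1166 and 1257 in the same order. The 8 differences of this pair ranged from -0.47 to 0.20, all under 2-fold. Ccl17, a ligand of Ccr4, was well above background only in the high-fat-diet knockout, at 22.5, which is close to that array's lowest such signal of 22.0. Ccl11, Ccl20 and Ccl22 were not well above background on any array.

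Of the 4 homeostatic and lymphoid chemokines, Cxcl13 changed and the others did not reach 2-fold. Cxcl13, which organises B cell follicles through Cxcr5, read 105 and 65.8 in wild type on normal and high-fat diet, and 98.6 and 380 in the knockout on the same diets. The high-fat-diet knockout stood apart from the other 3 arrays. Cxcl13 rose 3.35-fold with diet in the knockout (1.75 ± 0.22) and was 5.10-fold above high-fat-diet wild type (2.35 ± 0.25). In wild type the diet difference was -0.70 ± 0.26, under 2-fold, and Cxcr5 itself was not well above background on any array.

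Cxcl12, the ligand of Cxcr4 made by stromal and endothelial cells, was even over the arrays at 34161 and 32511 in wild type and 30643 and 32254 in the knockout on normal and high-fat diet. Its 4 differences, from -0.19 to -0.09, were each smaller than the scanner error of 0.20. Ccl19, which guides cells bearing Ccr7, read 232, 230, 193 and 269 over the arrays in the order of wild type and then knockout, normal diet first. Cxcl14 read 338 and 308 in wild type and 248 and 447 in the knockout on normal and high-fat diet, with its only spot on the knockout normal-diet array carrying the outlier flag. Its diet difference in the knockout was 0.65 ± 0.21, and neither it nor Ccl19, by its brightest probe, reached 2-fold in any comparison. A dimmer Ccl19 probe differed by 1.13 with diet in the knockout.

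Among the 8 receptors, Ccr2 and Cx3cr1 rose with diet in the knockout and Cxcr2 fell. Cx3cr1, carried by monocytes and some tissue macrophages, read 50.7 and 102 in wild type on normal and high-fat diet, and 50.9 and 317 in the knockout on the same diets. On normal diet the genotypes differed by less than the scanner error, and on high-fat diet both stood higher, the knockout more so. The rise was 5.42-fold in the knockout (2.44 ± 0.26), and the knockout was 2.74-fold above high-fat-diet wild type (1.46 ± 0.22). In wild type the diet difference was 0.99 ± 0.27, just under 2-fold. A second Cx3cr1 probe read 50.8, 103, 49.0 and 286 in the same order. The remaining probe disagreed, reading 75.7 and 22.0 in wild type, the latter not well above background, and 46.1 and 82.6 in the knockout.

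Ccr2, the receptor of Ccl2 and Ccl7, read 40.5 and 71.1 in wild type on normal and high-fat diet and 44.7 and 146 in the knockout on the same diets. It followed the order of Cx3cr1 and not that of Ccl2, since its normal-diet levels in the 2 genotypes were within the scanner error (0.15 ± 0.33). Ccr2 rose 2.83-fold with diet in the knockout (1.50 ± 0.27), and its wild-type difference of 0.79 ± 0.31 and its genotype difference on high-fat diet of 0.86 ± 0.24 were under 2-fold.

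Cxcr2, the neutrophil receptor of Cxcl1 and Cxcl5, had the opposite pattern. It read 17.3 and 33.1 in wild type on normal and high-fat diet, 169 in the normal-diet knockout and 11.9 in the high-fat-diet knockout, and the first and last of these were not well above background. It was at least 7.87-fold higher in the knockout than in normal-diet wild type and fell at least 8.82-fold with high-fat diet in the knockout. The probe had 1 spot an array, so both values rest on the single spot of the knockout normal-diet array. The neutrophil markers did not share 1 pattern on that array: for genotype on normal diet Mpo was at least 3.70-fold higher in the knockout, Retnlg fell (-1.32 ± 0.35), and the median over 6 markers was -0.56.

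The T cell receptors moved less. Cxcr3 read 80.4 and 54.9 in wild type and 92.3 and 84.5 in the knockout on normal and high-fat diet, and Cxcr6, found on liver NKT and T cells, read 248 and 149 in wild type and 204 and 201 in the knockout. Both were lowest in high-fat-diet wild type, with diet differences there of -0.57 ± 0.30 and -0.75 ± 0.22. Ccr7, the lymph node homing receptor, read 76.9 and 66.5 in wild type and 93.2 and 137 in the knockout, with a genotype difference of 0.86 ± 0.25 on high-fat diet. Cxcr4 read 28.1 and 28.7 in wild type, and 14.2, not well above background, and 30.2 in the knockout. None of these 4 receptors passed the size rule in any comparison, and Ccr1 was not well above background on any array.

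**Figure D3:**
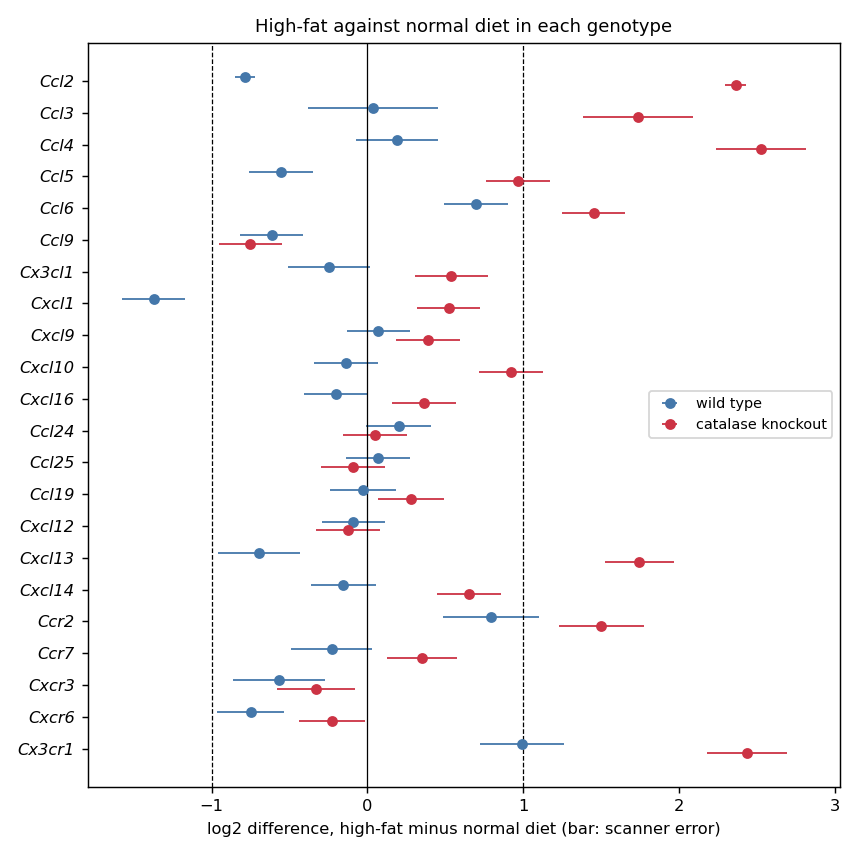
Log2 difference between high-fat and normal diet (x axis, scaled log2) for the 22 members well above background on all 4 arrays, in wild type (blue) and knockout (red), with the scanner error of a difference as bars and 2-fold as dashed lines. In the knockout Ccl2, Ccl3, Ccl4, Ccl6, Cxcl13, Ccr2 and Cx3cr1 lie beyond 2-fold higher, and in wild type Cxcl1 alone lies beyond 2-fold lower.

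The 2 diet differences were set against each other for those 22 members. The knockout difference exceeded the wild-type difference by at least 2-fold for 8 of them, against 3.73% of 13551 genes: Ccl2, Ccl3, Ccl4, Ccl5, Cxcl1, Cxcl10, Cxcl13 and Cx3cr1. It was lower by 2-fold for 0 members, against 1.28% of all genes. The sign was positive for 18 and negative for 4, against 44.4% of all genes positive, with a median of 0.73, beside -0.04 over all genes. The gap was 3.15 ± 0.09 for Ccl2, 2.44 ± 0.34 for Cxcl13, 2.34 ± 0.39 for Ccl4 and 1.90 ± 0.29 for Cxcl1. For Ccl2, Ccl4, Ccl5, Cxcl1 and Cxcl10 a level in the normal-diet knockout below that of normal-diet wild type enters this gap. For Cxcl1 the fall in wild type is also the larger of its 2 diet differences. For Ccl3, Cxcl13 and Cx3cr1 the normal-diet levels of the genotypes were within the scanner error of each other.

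**Figure D4:**
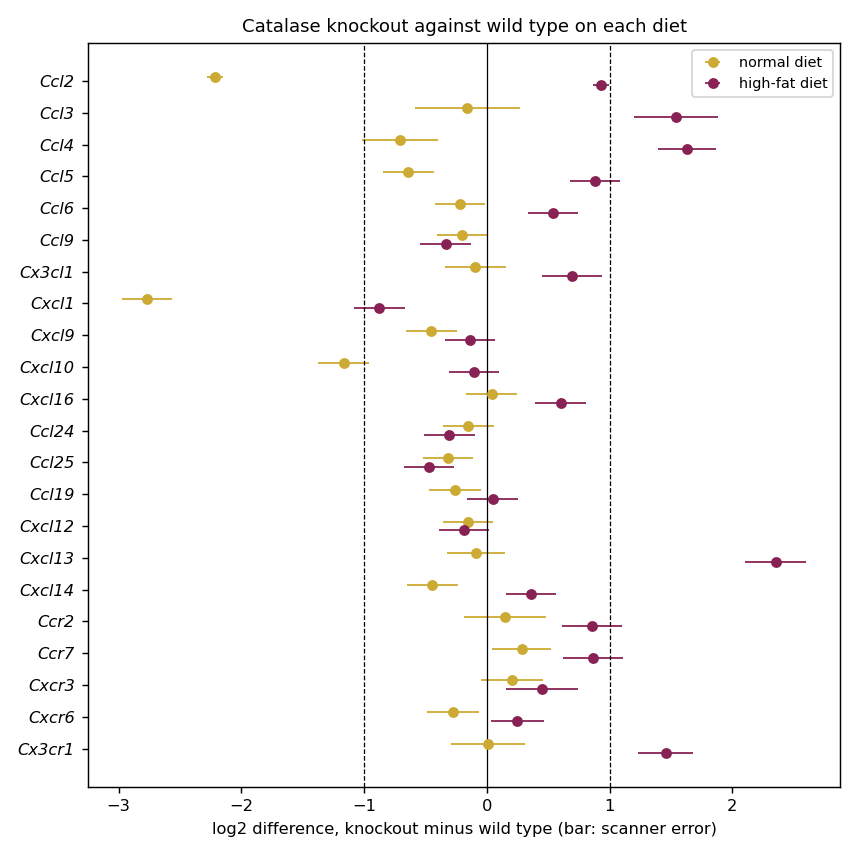
Log2 difference between knockout and wild type (x axis, scaled log2) for the same 22 members on normal diet (yellow) and high-fat diet (purple), with scanner error bars and 2-fold as dashed lines. Ccl2, Cxcl1 and Cxcl10 lie beyond 2-fold lower on normal diet, and Ccl3, Ccl4, Cxcl13 and Cx3cr1 lie beyond 2-fold higher on high-fat diet.

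Of the 23 rises and falls given above over the 4 comparisons, 12 stood under each of 8 alternative ways of processing. The other 11 dropped under 2-fold when a background model with an added offset was used: Ccl8 in both its falls, Ccl3, Ccl7 and Cxcl5 in both their rises, Ccr2 with diet in the knockout, and Ccl4 and Cx3cr1 for genotype on high-fat diet. The 12 were Cxcl1 with diet in wild type, Ccl2, Ccl4, Ccl6, Cxcl13, Cx3cr1 and Cxcr2 with diet in the knockout, Ccl2, Cxcl1, Cxcl10 and Cxcr2 for genotype on normal diet, and Cxcl13 for genotype on high-fat diet. Scaling to the array median instead of the 75th percentile shifted all genes by 0.09 for diet in wild type, -0.11 for diet in the knockout, 0.14 for genotype on normal diet and -0.06 for genotype on high-fat diet. The members' medians kept their sign under the 8 alternatives, and Cx3cr1 with diet in wild type passed 2-fold under 3 of them.

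The rest of the chemokine system had medians nearer 0 than the members in each comparison. Of 26 further ligands and receptors 25 were on the arrays and 12 of these were not well above background on any array. With diet in the knockout the median was 0.17 and none of 13 measured fell (1.64% of all genes did), while the scavenging receptor Ackr3 rose at least 3.31-fold. For genotype on high-fat diet Ackr1, a chemokine-binding receptor of venules, was higher by 1.26 ± 0.22. None of 11 measured passed the size rule in either of the other comparisons, where the medians were 0.07 for diet in wild type and 0.03 for genotype on normal diet. Of all genes 1.78% rose and 2.31% fell with diet in wild type, and 1.40% rose and 2.50% fell for genotype on normal diet.

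Of 16 NF-kB and inflammatory cytokine genes, 4 of 15 measured rose with diet in the knockout and none fell (4.22% and 1.64% of all genes did). Their median was 0.70. Il1b, which encodes a cytokine of activated macrophages, rose by 1.54 ± 0.07, the NF-kB subunit gene Relb by 1.34 ± 0.21, and the adhesion molecule genes Icam1 and Vcam1 by 1.08 ± 0.23 and 1.06 ± 0.20. Relb and Icam1 were also higher in the high-fat-diet knockout than in wild type on that diet (2.51% of all genes were), with a list median of 0.42. None of 13 measured passed the size rule in wild type or for genotype on normal diet, where the medians were 0.01 and -0.22. Of all genes 1.78% rose and 2.31% fell in the first of these comparisons, and 1.40% rose and 2.50% fell in the second. Of 12 interferon gamma response genes, Gbp2 alone rose, with diet in the knockout (4.22% of all genes did). It stood at the 2-fold line (1.00 ± 0.20), and Gbp3 stood just under it (0.95 ± 0.20). The list median there was 0.28 and 11 of 12 were positive, against 39.9% of all genes.

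Of the 12 immediate early genes, which respond within minutes to growth factors and stress, 4 fell in the normal-diet knockout and none rose. Of all genes 2.50% fell and 1.40% rose there. The list median was -0.66, and the differences were -2.31 ± 0.20 for Egr1, -1.58 ± 0.07 for Fos, -1.40 ± 0.25 for Atf3 and -1.24 ± 0.22 for Junb. Egr1 read 4140 and 2055 in wild type and 832 and 686 in the knockout on normal and high-fat diet, and like Cxcl1 was highest in normal-diet wild type. With diet in wild type 3 of 12 fell (2.31% of all genes did), with a median of -0.50. With diet in the knockout the median was -0.38 while 3 rose (4.22% of all genes did), among them Atf3 by 2.26 ± 0.25. These 4 genes thus stood low where Ccl2, Cxcl1 and Cxcl10 stood low, in the normal-diet knockout. Of these 4 only Atf3 passed 2-fold with diet in the knockout: Egr1 differed by -0.48 ± 0.20, Junb by -0.71 ± 0.23 and Fos by 0.31 ± 0.07. Egr1 and Junb were thus lowest in the high-fat-diet knockout, where Ccl2 read highest. The part of these genes in the result was not tested.

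Part of the macrophage, monocyte, neutrophil and dendritic cell markers rose with the chemokines on the knockout high-fat array. In bulk liver, a change in the number of cells of a type and a change in the RNA made per cell cannot be told apart. Of 14 macrophage and Kupffer cell markers 13 were on the arrays. For diet in the knockout all 13 were positive (39.9% of all genes were) and 8 rose (4.22% of all genes did), with a median of 1.103. Their mean scaled log2 level was 0.73, 0.95, 0.49 and 1.81 over the arrays in the order of wild type and then knockout, normal diet first. Marco, a scavenger receptor of Kupffer cells, read 2610, 2524, 1147 and 17647 in the same order, and Adgre1, the gene of the F4/80 antigen, read 861, 1135, 779 and 3524. In wild type none of the 13 passed the size rule with diet, and the median was 0.28. On normal diet Marco alone fell in the knockout (-1.18 ± 0.20), and the median was -0.13, within the 0.14 by which scaling to the median moves all genes there.

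Of 5 monocyte markers measured, 2 rose with diet in the knockout (4.22% of all genes did), with a median of 0.93. Their mean level over the arrays was -2.01, -1.81, -2.15 and -0.91. Chil3 rose by 2.54 ± 0.28. Of 8 neutrophil markers measured 3 rose (4.22% of all genes did), S100a8 by 2.49 ± 0.21, S100a9 by 2.45 ± 0.20 and Retnlg by 2.07 ± 0.34. The mean level of the neutrophil markers was -1.77, -1.48, -1.86 and -0.57. Elane, Mpo and Csf3r did not pass the size rule, with differences of -0.18, 0.12 and 0.15. Csf3r read 55850 or more on every array, beside 80528 or more for the hepatocyte gene Apob. The dendritic cell marker Siglech and the T cell marker Cd4 read 76440 or more and 28632 or more. What these bright probes read in whole liver was not tested. Mmp8 was not well above background on any array. Of 6 dendritic cell markers measured 2 rose (4.22% of all genes did), with a median of 0.66 over 5. Itgax, which some macrophages also express, rose by 2.87 ± 0.25 and Flt3 by 1.26 ± 0.30. Zbtb46, Siglech and Clec9a did not pass the size rule, with differences of 0.02, 0.13 and 0.66, nor did Cd209a, with a bound of 1.58-fold.

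Lymphocyte marker lists had negative medians with diet in both genotypes. Of 9 T and NK cell markers measured none rose with diet, where 1.78% of all genes rose in wild type and 4.22% in the knockout. Their medians were -0.24 in wild type and -0.15 in the knockout, and Cd8a, Klrb1c and Ncr1 were not well above background on any array. B and plasma cell markers had medians of -0.54 and -0.80 with diet in wild type and knockout, while Cxcl13 rose with diet in the knockout. For genotype their medians were 0.615 on normal diet and 0.51 on high-fat diet, each over 4 markers. In the knockout Cd79a was at least 5.27-fold lower on normal diet. On high-fat diet Cd79b was higher there (1.04 ± 0.21) and Jchain lower (-1.38 ± 0.21). The eosinophil genes Prg2 and Epx were not well above background on any array. Il5ra was well above background on every array, reading 59.4 and 49.6 in wild type and 56.3 and 83.7 in the knockout on normal and high-fat diet. Siglecf was well above background only on the high-fat-diet arrays, at 30.1 in wild type and 32.4 in the knockout. Neither gene passed the size rule in any comparison. Of 8 stellate cell genes measured 3 rose with diet in the knockout (4.22% of all genes did), the collagen genes Col1a1, Col1a2 and Col3a1, with a list median of 0.70. Col1a1 also rose with diet in wild type (1.13 ± 0.21), as 1.78% of all genes did. All 7 hepatocyte genes were well above background on every array, with a median of -0.29 for diet in the knockout. Of these Cps1, a urea cycle enzyme gene, fell with diet in the knockout (-1.10 ± 0.20), and Cps1 and Tat were lower in the knockout on high-fat diet. For each of these lists, the part in the chemokine result was not tested.

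**Figure D5:**
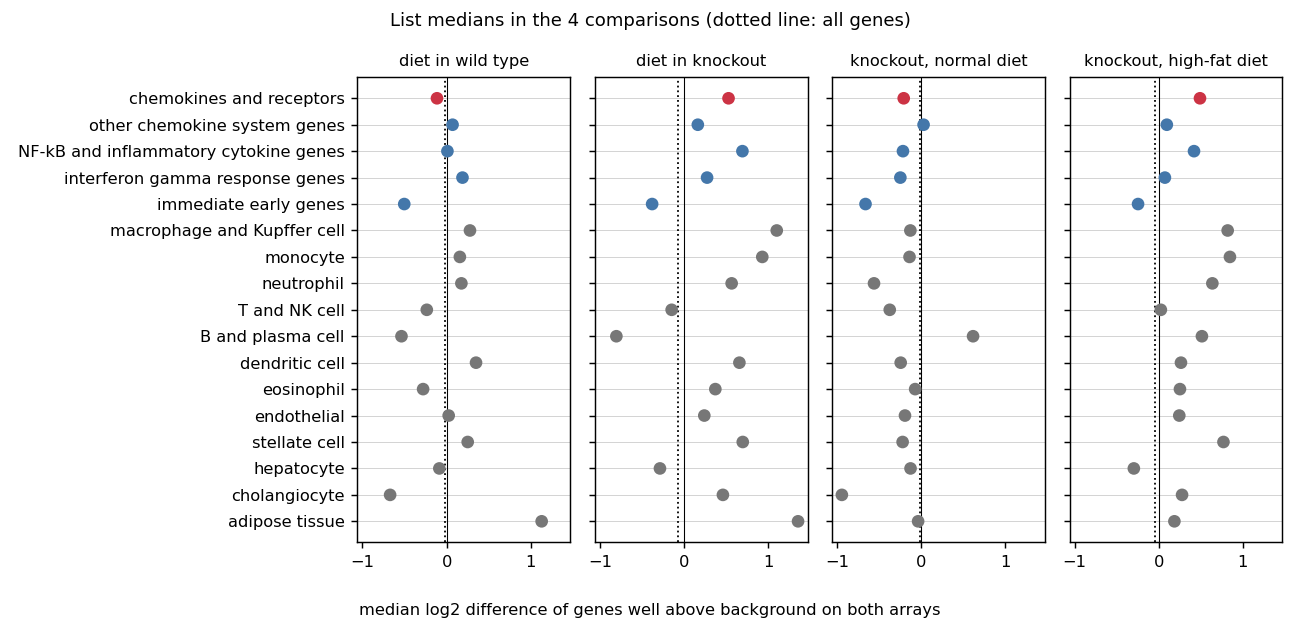
Median log2 difference (x axis) of each gene list in the 4 comparisons, over the genes well above background on both arrays, with members in red, pathway lists in blue, cell type markers in grey and the median of all genes as a dotted line. In the diet comparison of the knockout the members sit at 0.53, with macrophage markers at 1.103 and T and NK cell markers at -0.15.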

How the data were processed

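Liver RNA of 4 groups was measured on 1-colour Agilent mouse arrays, 1 array a group. The deposited intensity values come from Feature Extraction 11.5.1.1, per the file headers, already background-subtracted; GeneSpring GX 7.3 is named in the series' design text. The authors' value table agreed within 1% with these for 99.80% to 99.84% of 39429 probes an array. By that match the table holds unlogged, uncentred intensities.

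Here log2 of the processed signal minus the array's 75th percentile was used. Control spots were left out, as were outlier-flagged spots unless a probe had no other. Spots were averaged per probe, probes were named by accession through RefSeq (GRCm38.p6; 27508 of 39429), and a gene took its brightest probe by mean signal. No coordinates of genes are given, since the RefSeq build differs from that of the array design; promoter coordinates are RefSeq's.

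Genes were called by the 2-fold rule given above, with no test. A check on simulated data with 200 changed genes recovered 100% at 4-fold, 93% to 96% at 2.5-fold and, below the threshold, 2% to 4% at 1.5-fold, with 2 to 7 false calls a run. Its only noise was the scanner error, and every simulated gene was set well above background. It holds no spread between animals and no lower bounds, so it gives no rate of false calls for these groups. The number of arrays limits the precision. All 34 listed genes are accounted for. Of other lists a few genes a comparison are named, mostly by size. The members and lists were chosen with earlier results of these data known. One item of the further chemokine genes is not reported here. The alternatives were median, quantile and cyclic loess scaling, normexp with offset 50 (on median signals, since the files hold no mean signal), the mean of all probes, a weaker detection flag, flagged spots kept and the authors' table. Versions were Python 3.11.15, numpy 2.4.6, pandas 2.3.3, R 4.3.3 and limma 3.58.1.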

Additional observations from a re-analysis of the deposited data

Results flagged for a closer look

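Of the members well above background on both arrays of each comparison, 4 moved in opposite directions in the groups compared, each time by more than 2 scanner errors and with at least 1 of both differences past 2-fold. Ccl5 also had opposite signs beyond 2 scanner errors, with no difference past 2-fold: -0.55 and 0.97 with diet in wild type and knockout, and -0.64 and 0.88 between genotypes on normal and high-fat diet. With 1 array a group these differences between groups were not tested.

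Ccl2 differed with diet by -0.79 in wild type and 2.36 in the knockout, and between genotypes by -2.22 on normal diet and 0.93 on high-fat diet. Cxcl1 differed with diet by -1.37 in wild type and 0.52 in the knockout. For Cxcl13 the diet differences were -0.70 in wild type and 1.75 in the knockout. For Ccl4 the genotype differences were -0.71 on normal diet and 1.63 on high-fat diet.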

How the results depend on the processing

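No rise or fall changed sign under the 8 alternatives, 861 member values stayed on the same side of 2-fold, 8 passed it and 11 lost it. The background model with an offset of 50, which shrinks ratios of dim probes by construction, took 11 rises and falls under 2-fold: Ccl8 at -0.66 and -0.59, Ccl3 at 0.66 and 0.56, Ccl7 at 0.95 and 0.72, Cxcl5 at 0.64 and 0.70, Ccr2 at 0.76, Ccl4 at 0.90 and Cx3cr1 at 1.00. It left 1 fall with diet in wild type, 5 rises with diet in the knockout and 1 rise for genotype on high-fat diet. Median, quantile and cyclic loess scaling each gave 1 rise with diet in wild type, Cx3cr1. The weaker detection flag gave 2 falls with diet in the knockout, 2 rises for genotype on normal diet, 1 fall for genotype on high-fat diet and 1 member with a lower diet difference in the knockout. Members' medians ranged from -0.146 to -0.021 and from 0.425 to 0.581 with diet in wild type and knockout, and from -0.235 to -0.068 and from 0.379 to 0.491 for genotype on normal and high-fat diet. Over all genes, rises and falls with diet in the knockout numbered 629 and 245, and 510 and 323 under median scaling; for genotype on normal diet they numbered 206 and 368, and 264 and 285. The offset gave 121 and 155, 271 and 138, 102 and 147, and 142 and 122 for diet in wild type, diet in the knockout and genotype on normal and high-fat diet, and the weaker flag 624 and 927, 1170 and 625, 603 and 1006, and 855 and 541, where the usual settings gave 261 and 338, 629 and 245, 206 and 368, and 373 and 236. No paired analysis was possible because each group has 1 array and the labels give no replicate numbers. The slide as a block was not run, since all 4 arrays lie on 1 slide. Signals near background limit Ccl7, Ccl8, Cxcl5, Ccl17, Cxcr2 and Cxcr4.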

Other observations

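Of the members with several probes, Cx3cr1 is described above and the other 5 are given here by the probes not used there. Ccl19 had a probe that read 201 and 233 in wild type on normal and high-fat diet and 140 and 352 in the knockout on the same diets, and its diet difference in the knockout was 1.13, where the brighter probe gave 0.28. A further Ccl19 probe read 203, 213, 174 and 276 in the same order. For Cxcl9 the dimmer probe read 430, 451, 320 and 459, lowest like the brighter one in the knockout on normal diet. Cxcr6 read 164, 104, 134 and 115 on its dimmer probe, and was highest there too in wild type on normal diet. The dimmer Cxcl12 probe read 4028, 4315, 3741 and 4430, and the dimmer Ccl25 probe 79.5, 49.2, 49.6 and 51.9.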
